A study of Mus musculus with 4 samples.

Results

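The aldehyde dehydrogenases examined here were 10 genes, Aldh2, Aldh1a1, Aldh1a7, Aldh1b1, Aldh3a2, Aldh4a1, Aldh6a1, Aldh7a1, Aldh8a1 and Aldh9a1, chosen by gene symbol. All 10 were found among the 22155 symbols of the count table, and all 10 passed the filter on low counts, as did 13309 genes. Messenger RNA was sequenced from whole liver of wild-type C57BL/6 mice, an inbred strain, aged 8 to 10 weeks. In the gavage group (chronic ethanol + gavage 9 hour, 2 libraries), mice ate a Lieber-DeCarli liquid diet with 5% ethanol for 10 days, then received 1 ethanol binge of 5 g per kg body weight by gavage, a tube into the stomach, and were killed 9 h later. In the reference libraries (chronic ethanol alone, 2 libraries), mice ate the same diet and, going by the title, had no binge, so no library stands for an ethanol-free liver. The groups were taken from the titles, because the labels give the same treatment protocol, binge included, for all 4 samples. The sources used here give neither a control gavage nor the sex of the mice, and they do not say when the livers of the ethanol-alone mice were taken.

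Aldehyde dehydrogenases oxidise aldehydes to carboxylic acids with NAD or NADP as the electron acceptor. In liver, alcohol dehydrogenase, CYP2E1 and catalase turn ethanol into acetaldehyde, and the mitochondrial enzyme encoded by Aldh2 is the main one that turns acetaldehyde into acetate. Other members work on retinal, fatty aldehydes and the semialdehydes that arise when amino acids are broken down.

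Aldh1a1 and Aldh1a7 are the closest pair among the members, and their sequences are shown because reads of one can be taken for reads of the other. Both lie on chromosome 19 of GRCm38, Aldh1a1 at 20492715 to 20643465 on the plus strand and Aldh1a7 at 20692953 to 20727562 on the minus strand (whole genes, with introns and UTRs). Their GENCODE coding sequences, each of 1503 bases without the stop codon, were identical at 91.6% of aligned positions. The first 150 coding bases are printed from the start codon, with the 10 positions that differ in capitals.
Aldh1a1: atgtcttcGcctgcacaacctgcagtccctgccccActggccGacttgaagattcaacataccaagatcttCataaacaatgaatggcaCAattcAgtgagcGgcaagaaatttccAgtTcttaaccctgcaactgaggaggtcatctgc
Aldh1a7: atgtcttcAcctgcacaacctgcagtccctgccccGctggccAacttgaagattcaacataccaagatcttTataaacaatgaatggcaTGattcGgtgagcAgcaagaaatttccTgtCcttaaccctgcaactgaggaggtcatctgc
Over the whole transcripts, 6.54% of the 50-base windows of Aldh1a1 and 7.49% of those of Aldh1a7 were found letter for letter in the other gene. The resemblance extended upstream of the genes. Of the 250 bases before each start in RefSeq (GRCm38.p6), the windows of the downstream start of Aldh1a1 (chr19:20601718-20601967, plus strand) and of Aldh1a7 (chr19:20727557-20727806, minus strand) aligned over 110 positions with 94.5% identity, printed in capitals.
Aldh1a1 window: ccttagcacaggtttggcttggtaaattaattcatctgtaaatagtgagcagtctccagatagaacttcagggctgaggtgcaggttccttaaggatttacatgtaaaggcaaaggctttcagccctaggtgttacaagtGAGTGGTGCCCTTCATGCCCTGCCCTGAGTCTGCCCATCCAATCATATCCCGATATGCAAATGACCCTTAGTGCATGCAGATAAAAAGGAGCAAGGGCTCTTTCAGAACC
Aldh1a7 window: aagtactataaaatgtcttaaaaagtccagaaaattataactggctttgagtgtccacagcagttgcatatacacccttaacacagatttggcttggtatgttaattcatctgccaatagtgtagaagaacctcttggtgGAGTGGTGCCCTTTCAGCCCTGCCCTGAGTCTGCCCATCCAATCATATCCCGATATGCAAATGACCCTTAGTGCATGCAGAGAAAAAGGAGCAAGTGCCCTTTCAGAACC
The window at the other RefSeq start of Aldh1a1 aligned with that of Aldh1a7 over only 23 positions. Windows of 250 bases before to 50 bases after a start were found for 8 of the members. The letters CCAAT, searched on both strands, stood in the windows of 7 of these genes (all but Aldh8a1), while 41.1% of the 27025 genes with windows held them. AGGTCA, also on both strands, stood in 1 of the 8 (Aldh6a1) and in 18.1% of all genes. A match to such letters is a description of the sequence only.

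Levels are given as CPM, counts divided by the library size after TMM scaling, which adjusts for differences in RNA composition. The libraries held 28791281 to 30347558 counts, and the lowest count of any member in any library was 1522, a counting error of 2.56%. Hepatocyte markers, among them Alb and Apoa1, were abundant in every library and summed to 105820 and 122280 CPM after the gavage, against 143140 and 120610 CPM with ethanol alone. These sums overlapped, although 7 of the 8 markers had a mean below that with ethanol alone (median log2 fold change -0.57). Kupffer cell markers did not overlap between groups and lay lower after the gavage for 8 of 8 genes, as did 27.2% of all tested genes. They summed to 343 and 383 CPM after the gavage, against 592 and 588 CPM with ethanol alone. The libraries numbered 1 stood apart from those numbered 2. Skeletal muscle markers summed to 865 and 1.3 CPM after the gavage, against 391 and 11.7 CPM with ethanol alone, and the adipocyte gene Adipoq followed them, at 8.92 and 0.0664 CPM after the gavage, against 5.53 and 0 CPM with ethanol alone. Replicate 1 of ethanol alone held pancreatic acinar markers at 839 CPM, while the others held 4.52 to 8.42 CPM, and liver genes typical of males at 7869 CPM, where the others held 212 to 867 CPM. Genes typical of female liver stood at 262 CPM in it and at 2454 to 2593 CPM in the others. Counts of 4 Y-linked genes were 0 or 1 in every library. Of pericentral hepatocyte markers, 4 of 12 lay lower and 0 higher at an unadjusted p under 0.05 (median log2 fold change -0.30). Of periportal ones, 3 of 12 lay lower and 0 higher (median -0.69), where 9.85% of all genes lay lower and 8.91% higher at that level. The part of all these markers in the members' values was not tested.

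After the gavage, all 10 members had lower mean levels than with ethanol alone, and for 9 of them, all but Aldh1b1, both gavage libraries lay below both ethanol-alone libraries. Over the 13309 genes tested, 27.2% lay apart in this direction, 27.5% lay apart in the other (0 members did), and 48.3% had a fold change below 0. The log2 fold changes of the members (gavage over ethanol alone, so that values below 0 mean lower after the gavage) ran from -1.13 (Aldh1a1) to -0.26 (Aldh8a1) with a median of -0.71, against a median of 0.02 over all genes. No member passed the test. At an adjusted p under 0.05 (edgeR's quasi-likelihood test, Benjamini-Hochberg over all genes), 0 of 10 members and 0 of 13309 genes were called (0%). The members' adjusted p-values ran from 0.158 to 0.552. At an unadjusted p under 0.05, 4 members lay lower (Aldh1a1, Aldh1a7, Aldh4a1 and Aldh7a1) and 0 higher, where 9.85% of all genes lay lower at that level. DESeq2 called the same 4 members lower, where it called 4.9% of all genes lower. With limma-voom, 0 members and 0 of all genes were called. The likelihood-ratio test of edgeR called 0 members, where it called 1.98% of all genes lower. Without replicate 1 of the gavage group, 0 members had an unadjusted p under 0.05, where 4.31% of all genes lay lower at that level, and DESeq2 called 0 members, where it called 0.804% of all genes lower. That library was the lowest of the 4 for all 10 members, as it was for 25.8% of all genes. Nothing in the labels ties the 2 libraries of a group to different mice, and p-values therefore cover only the spread between samples. That spread was far wider than counting alone gives. Its chi-square per degree of freedom, near 1 for counting alone, was 164.6 in the gavage group and 149.5 with ethanol alone. Whether the spread lies between mice was not tested. In bulk tissue, fewer cells of a type and less RNA per cell cannot be told apart.

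**Figure D1:**
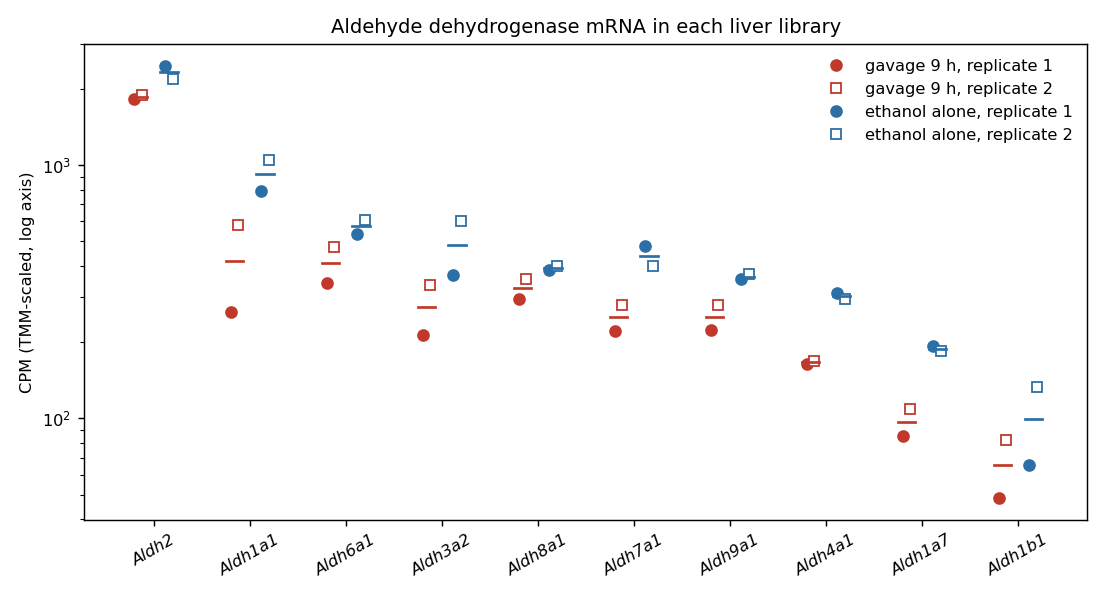
Level (CPM, TMM-scaled, log axis) of the 10 members in each library, with gavage libraries left and red and ethanol-alone libraries right and blue. Filled circles are replicate 1, open squares replicate 2 and bars group means. The red points lie below the blue ones for every gene but Aldh1b1, whose groups overlap.

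**Figure D2:**
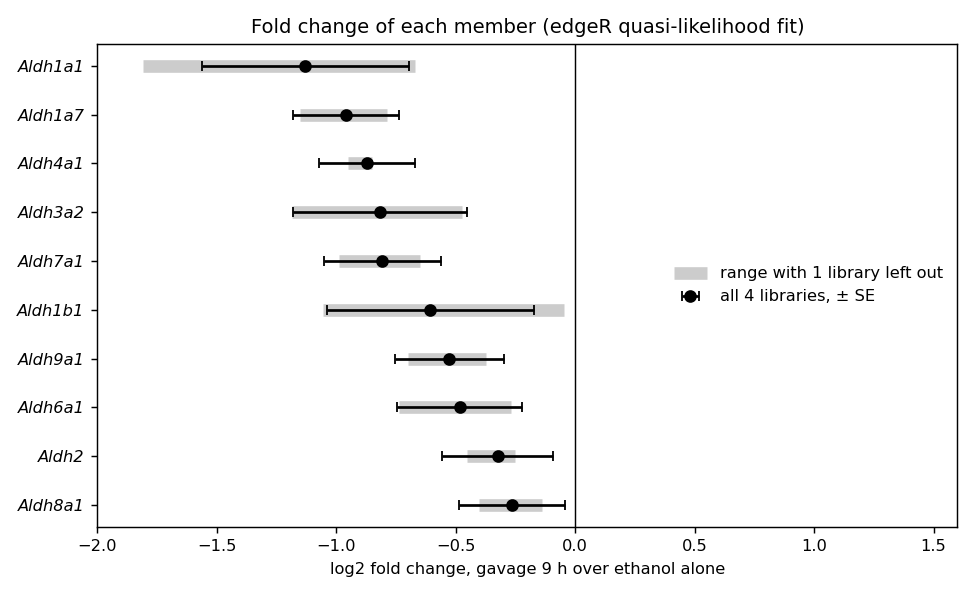
Log2 fold change (gavage over ethanol alone) of each member with its standard error (black), and the range of the same value when any 1 library is left out (grey). Every range stays below 0, and those of Aldh1a1 and Aldh1b1 are the widest, from -1.81 to -0.67 and from -1.05 to -0.05. Only Aldh1b1 had overlapping groups, so for the other members leaving out a library could hardly turn the sign.

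Among enzymes that act on acetaldehyde, Aldh2 had one of the smallest differences of all members and Aldh1b1 was the member whose groups overlapped. Aldh2, the mitochondrial enzyme (chromosome 5, 121566027 to 121593824), had 1829 and 1889 CPM after the gavage, against 2469 and 2189 CPM with ethanol alone. The groups did not overlap, but the gap between them was about as wide as the gap between the ethanol-alone libraries. Aldh2 had a log2 fold change of -0.32 (SE 0.23; edgeR quasi-likelihood test, adjusted p = 0.487). Aldh1b1, a second mitochondrial enzyme that also accepts acetaldehyde (chromosome 4, 45799022 to 45804604), had 48.5 and 82 CPM after the gavage, against 65.1 and 133 CPM with ethanol alone. In each group replicate 2 was far above replicate 1, and the groups overlapped. Its log2 fold change of -0.61 (SE 0.43; edgeR quasi-likelihood test, adjusted p = 0.483) was -0.05 without replicate 2 of ethanol alone. The level of Aldh2 per exon length was 16.9 and 10.3 times that of Aldh1b1 after the gavage, against 17 and 7.36 times that of Aldh1b1 with ethanol alone, so the groups overlapped. The size of these ratios depends on the length taken for each gene, but the overlap does not.

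Of the enzymes that supply acetaldehyde, 3 of 6 tested genes lay lower and 1 higher at an unadjusted p under 0.05 (median log2 fold change -0.96), and none passed edgeR's adjusted threshold. Over all genes, 9.85% lay lower and 8.91% higher at that level, the shares to set beside this list and those below. Cyp2e1, the microsomal ethanol oxidase, stood at 2988 ± 602 CPM after the gavage, against 7546 ± 1883 CPM with ethanol alone (means ± SD, n = 2 each, here and for the genes of the other lists). Catalase (Cat) stood at 1252 ± 124 CPM after the gavage, against 2998 ± 199.6 CPM with ethanol alone, and Adh1, the main alcohol dehydrogenase of liver, at 1526 ± 371 CPM after the gavage, against 2424 ± 33.8 CPM with ethanol alone. Adh4, which had the smallest p of this list, stood at 24.5 ± 3.58 CPM after the gavage, against 121 ± 55.4 CPM with ethanol alone (log2 fold change -2.30). Adh7, an alcohol dehydrogenase of the upper digestive tract, lay the other way, at 10.7 ± 7.13 CPM after the gavage, against 2.82 ± 0.671 CPM with ethanol alone, with 15.7 CPM in replicate 1 of the gavage group. In acetate activation, the step after Aldh2, 0 of 3 tested genes lay lower and 0 higher at an unadjusted p under 0.05 (median log2 fold change -0.34). Acss2, the cytosolic acetyl-CoA synthetase, overlapped between groups, at 226 ± 205 CPM after the gavage, against 316 ± 165 CPM with ethanol alone.

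Aldh1a1 and its paralog Aldh1a7 had the fold changes farthest below 0 with all 4 libraries, but this order did not hold with each library left out: without replicate 1 of the gavage group Aldh4a1 (-0.85) was below both. Without replicate 1 of ethanol alone, Aldh3a2 (-1.15) and Aldh1b1 (-1.05) were below Aldh1a7 (-0.95). Without replicate 2 of ethanol alone, Aldh7a1 (-0.98) was below Aldh1a1 (-0.97). Aldh3a2 was also below Aldh1a7 without replicate 2 of the gavage group (-1.18 against -1.15). Aldh1a1, which oxidises retinal to retinoic acid and also accepts acetaldehyde and lipid aldehydes, stood at 262 and 577 CPM after the gavage, against 791 and 1044 CPM with ethanol alone. The gap between the gavage libraries, of which replicate 1 was the lower, was wider than the gap between the groups. Aldh1a1 had a log2 fold change of -1.13 (SE 0.43; edgeR quasi-likelihood test, adjusted p = 0.258). Leaving out replicate 1 of the gavage group gave a log2 fold change of -0.67. Aldh1a7 stood at 84.9 and 109 CPM after the gavage, against 192 and 185 CPM with ethanol alone. Here the libraries of each group lay close together and the groups were well apart. The paralog had a log2 fold change of -0.96 (SE 0.22; edgeR quasi-likelihood test, adjusted p = 0.158). Summed as 1 gene, the pair stood at 347 and 687 CPM after the gavage, against 984 and 1229.5 CPM with ethanol alone, a log2 fold change of -1.10 (SE 0.39; edgeR quasi-likelihood test, adjusted p = 0.241). The level of Aldh1a7 per exon length was 0.774 and 0.452 times that of Aldh1a1 after the gavage, against 0.58 and 0.423 times that of Aldh1a1 with ethanol alone, so the ratio within the pair overlapped between groups. That of Aldh2 to Aldh1a1 was 6.72 and 3.15 after the gavage, against 3 and 2.02 with ethanol alone, higher in both gavage libraries. The size of both ratios depends on the length taken for each gene, but their order across libraries does not. The mean of Aldh1a1 over the libraries was 135 CPM per kilobase of all exons and 284 per kilobase of its longest transcript. For Aldh1a7 it was 69.1 with either length. With 2 libraries against 2, an exact permutation test of such a ratio cannot give a 2-sided p below 0.333.

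In retinol and retinal metabolism, 3 of 16 tested genes lay lower and 1 higher at an unadjusted p under 0.05 (median log2 fold change -0.28). Dhrs3, which reduces retinal back to retinol, stood at 71.5 ± 0.305 CPM after the gavage, against 203 ± 53 CPM with ethanol alone. Bco1, which cleaves carotene to retinal, lay higher, at 27.7 ± 3.22 CPM after the gavage, against 8.98 ± 1.98 CPM with ethanol alone. In other aldehyde clearance, 5 of 13 tested genes lay lower and 1 higher at an unadjusted p under 0.05 (median log2 fold change -0.28). Aox3, an aldehyde oxidase, stood at 88.9 ± 23.2 CPM after the gavage, against 329 ± 144 CPM with ethanol alone.

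One member works on long-chain aldehydes. Aldh3a2 encodes the fatty aldehyde dehydrogenase of the endoplasmic reticulum and peroxisomes, which oxidises long-chain aldehydes from ether lipids, sphingolipids and phytol (chromosome 11, 61223417 to 61267464). It had 213 and 337 CPM after the gavage, against 369 and 599.9 CPM with ethanol alone. In both groups replicate 1 was lower than replicate 2, and the upper gavage library and the lower ethanol-alone library were close. Aldh3a2 had a log2 fold change of -0.82 (SE 0.36; edgeR quasi-likelihood test, adjusted p = 0.302). Without replicate 2 of ethanol alone this was -0.47, and without replicate 2 of the gavage group -1.18. The list for fatty aldehyde metabolism around it also holds genes that do not act on fatty aldehydes, such as fatty acid hydroxylases. Of its 10 tested genes, 5 lay lower and 0 higher at an unadjusted p under 0.05 (median log2 fold change -0.78). Hacl1, the peroxisomal lyase that releases the fatty aldehyde of phytol breakdown, stood at 247 ± 129 CPM after the gavage, against 584 ± 68.3 CPM with ethanol alone, and Cyp4f14, a fatty acid hydroxylase, at 151 ± 17 CPM after the gavage, against 346 ± 83.4 CPM with ethanol alone.

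The amino acid enzymes held the member with the tightest groups, Aldh4a1. This gene (chromosome 4, 139622866 to 139649690) encodes the mitochondrial enzyme that oxidises glutamate semialdehyde in the breakdown of proline, and it had 164 and 169 CPM after the gavage, against 312 and 296 CPM with ethanol alone. Both gavage libraries lay far below both ethanol-alone libraries, and those of 1 group nearly coincided. Aldh4a1 had a log2 fold change of -0.87 (SE 0.20; edgeR quasi-likelihood test, adjusted p = 0.158), and leaving out any 1 library kept it between -0.95 and -0.85. DESeq2 gave an adjusted p of 9.38e-05 for it, and of 0.00505 to 0.29 with 1 library left out, the highest without replicate 1 of the gavage group. Of the 50-base windows of the Aldh4a1 transcript, 45% also occur in the overlapping gene model Gm21969, which had at most 2 counts in any library, and the effect of this overlap on the Aldh4a1 counts was not tested. Aldh6a1 shares 5.79% of its windows with Bbof1, which had 10 to 47 counts a library. In proline metabolism, 4 of 9 tested genes lay lower and 0 higher at an unadjusted p under 0.05 (median log2 fold change -0.49). Oat, which makes glutamate semialdehyde from ornithine, stood at 557 ± 54.5 CPM after the gavage, against 1088 ± 149 CPM with ethanol alone.

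Aldh7a1 encodes the enzyme that oxidises aminoadipate semialdehyde in the breakdown of lysine (chromosome 18, 56509687 to 56572951). It had 222 and 280.4 CPM after the gavage, against 479 and 399 CPM with ethanol alone. The groups did not overlap, and replicate 1 of ethanol alone was the highest. Aldh7a1 had a log2 fold change of -0.81 (SE 0.25; edgeR quasi-likelihood test, adjusted p = 0.206). Aldh6a1, the mitochondrial methylmalonate semialdehyde dehydrogenase of valine and pyrimidine breakdown (chromosome 12, 84430717 to 84451004), had 344 and 474 CPM after the gavage, against 535 and 609 CPM with ethanol alone. The gap between the groups was smaller than the gap between the gavage libraries. Aldh6a1 had a log2 fold change of -0.48 (SE 0.26; edgeR quasi-likelihood test, adjusted p = 0.37). Leaving out replicate 1 of the gavage group gave a log2 fold change of -0.27. In lysine breakdown, 3 of 7 tested genes lay lower and 0 higher at an unadjusted p under 0.05 (median log2 fold change -0.62), and Gcdh, the glutaryl-CoA dehydrogenase, stood at 359 ± 81.4 CPM after the gavage, against 583 ± 14.8 CPM with ethanol alone. In valine breakdown, 7 of 12 tested genes lay lower and 0 higher at an unadjusted p under 0.05 (median log2 fold change -0.72). Hibadh, which makes the semialdehyde that Aldh6a1 oxidises, stood at 204 ± 32.4 CPM after the gavage, against 340.1 ± 21.7 CPM with ethanol alone.

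Aldh8a1, assigned to the kynurenine pathway of tryptophan breakdown (chromosome 10, 21377291 to 21396585), had the fold change nearest to 0. It stood at 297 and 356 CPM after the gavage, against 386 and 399 CPM with ethanol alone, so that the nearest libraries of the 2 groups were closer than the gavage libraries were to each other. Its log2 fold change of -0.26 (SE 0.22; edgeR quasi-likelihood test, adjusted p = 0.552) was -0.14 without replicate 1 of the gavage group. Aldh9a1, which oxidises trimethylaminobutyraldehyde in carnitine synthesis (chromosome 1, 167349991 to 167368532), had 224 and 280.4 CPM after the gavage, against 356 and 370.04 CPM with ethanol alone. The ethanol-alone libraries lay close together and above both gavage libraries. Aldh9a1 had a log2 fold change of -0.53 (SE 0.23; edgeR quasi-likelihood test, adjusted p = 0.292). In the kynurenine pathway, 6 of 10 tested genes lay lower and 0 higher at an unadjusted p under 0.05 (median log2 fold change -0.80). Tdo2, its entry enzyme, stood at 710.2 ± 258 CPM after the gavage, against 1366 ± 96.8 CPM with ethanol alone. In carnitine and choline metabolism, 1 of 9 tested genes lay lower and 0 higher at an unadjusted p under 0.05 (median log2 fold change -0.11).

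**Figure D3:**
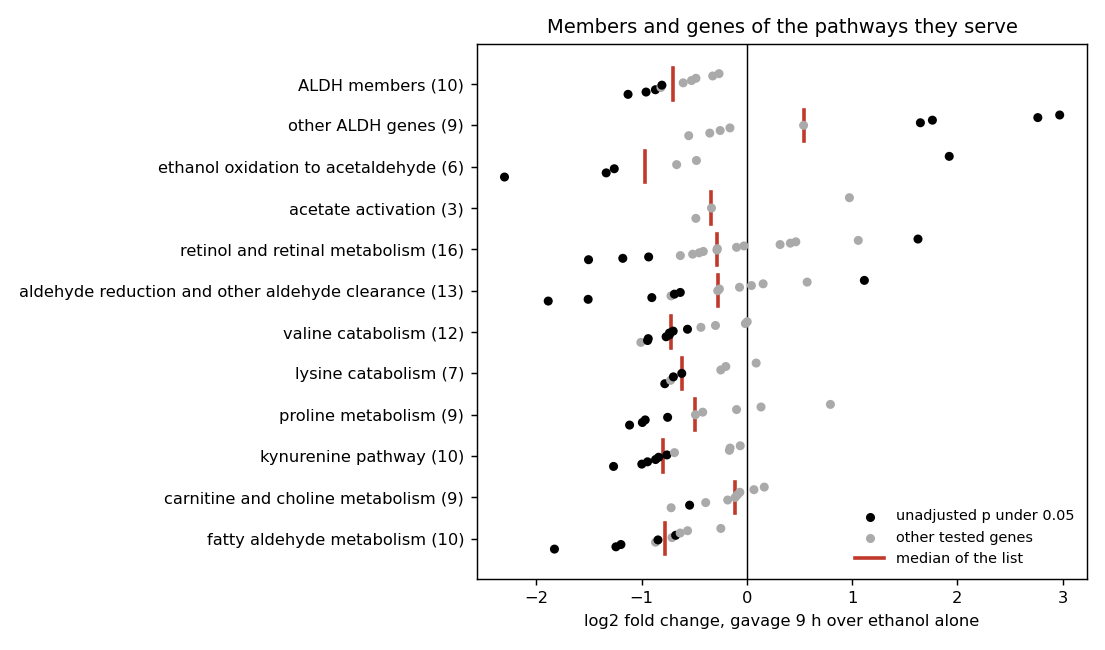
Log2 fold change (gavage over ethanol alone) of every tested gene in the member list and in 11 lists of related genes, with the number tested in brackets. Black points had an unadjusted p under 0.05, grey points did not, and red bars mark medians. The members and the valine, kynurenine and fatty aldehyde lists lie mostly left of 0, and 5 of the 9 genes of the rest of the family lie right of 0.

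Because the libraries numbered 1 held RNA typical of other tissues in both groups, the members were also compared within each number, with no test. In the libraries numbered 1 the log2 ratio of gavage over ethanol alone was below 0 for 10 of 10 members, from -1.60 (Aldh1a1) to -0.38 (Aldh8a1). In the libraries numbered 2, in which the muscle markers and Adipoq were low, it was also below 0 for 10 of 10, from -0.85 (Aldh1a1) to -0.16 (Aldh8a1). For every member but Aldh1b1 the groups did not overlap, so the sign was fixed in advance and only the size could differ. The ratio of Aldh4a1 was close in both, at -0.93 and -0.81, while that of Aldh7a1 was -1.11 in libraries numbered 1 and -0.51 in those numbered 2.

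Levels of different genes were set side by side per kilobase of exon (RPKM). Aldh2 led in every library, at 363 ± 8.33 RPKM after the gavage and 454 ± 38.6 RPKM with ethanol alone (SD, n = 2 each), and its lowest library, at 357 RPKM, was above the highest of any other member, 212 RPKM of Aldh1a1. Aldh1a1 came next by its mean over the libraries, at 85 ± 45.2 RPKM after the gavage and 186 ± 36.2 RPKM with ethanol alone. Aldh9a1, Aldh6a1, Aldh8a1, Aldh1a7, Aldh3a2 and Aldh7a1 followed with means over the 4 libraries of 90.9, 84.8, 81.9, 69.1, 67.6 and 66.6 RPKM, and each overlapped its neighbours in this order across libraries. With the length of the longest transcript in place of all exons, these 6 genes swapped places among themselves. Aldh4a1 and Aldh1b1 were lowest, with mean levels of 47.9 and 35.8 RPKM. The summed level of the 10 members was 779 and 969 RPKM after the gavage, against 1270.5 and 1336 RPKM with ethanol alone. Aldh2 made up 45.8% and 38.1% of that sum in the gavage libraries, against 37.9% and 32% with ethanol alone. With the longest transcript in place of all exons, its shares overlapped between groups, at 43.1% and 34.7% in the gavage libraries, against 34.9% and 28.7% with ethanol alone. Aldh1a1 made up 6.81% and 12.1% in the gavage libraries, against 12.6% and 15.8% with ethanol alone. By the longest transcript its shares were 10.1% and 17.4% in the gavage libraries, against 18.4% and 22.5% with ethanol alone. By compartment, the cytosolic members (Aldh1a1, Aldh1a7, Aldh8a1 and Aldh9a1) summed to 228 and 334 RPKM after the gavage, against 446 and 501 RPKM with ethanol alone. The mitochondrial members (Aldh2, Aldh1b1, Aldh4a1 and Aldh6a1) summed to 471 and 521 RPKM after the gavage, against 666 and 651 RPKM with ethanol alone. Most of that sum was Aldh2. Without it, they summed to 114 and 152 RPKM after the gavage, against 184 and 224 RPKM with ethanol alone. Aldh3a2 and Aldh7a1 were in neither compartment sum.

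**Figure D4:**
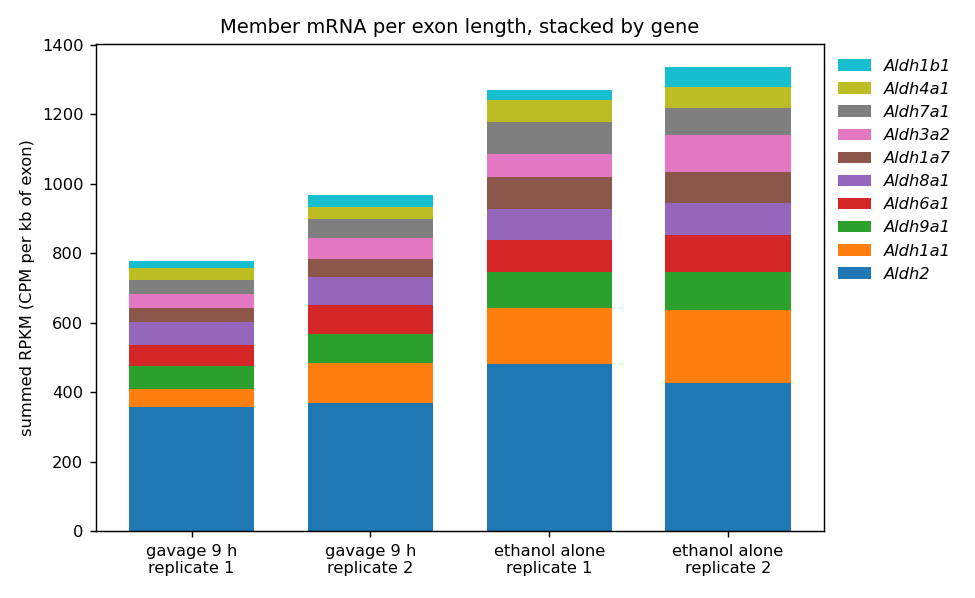
Level of the 10 members per kilobase of exon (RPKM), stacked by gene, in the gavage libraries (left) and the ethanol-alone libraries (right). The stacks reach 779 and 969 RPKM with the gavage and 1270.5 and 1336 RPKM with ethanol alone, and Aldh2, at the bottom, is the tallest block in each.

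The rest of the family held 11 further genes, of which 9 passed the filter on low counts. At an unadjusted p under 0.05, 4 of these 9 lay higher after the gavage, where 8.91% of all genes did, and 0 lay lower. edgeR's quasi-likelihood test called 0 of them over all genes. Aldh3b3, a lipid aldehyde dehydrogenase, had 10.9 and 10.5 CPM after the gavage, against 0.586 and 2.11 CPM with ethanol alone. This was a log2 fold change of 2.97 (SE 0.59; edgeR adjusted p = 0.139). It shares 13% of its 50-base windows with its neighbour Aldh3b2, which had 73 and 10 counts after the gavage, against 1 and 2 counts with ethanol alone. Aldh18a1, the synthase that makes glutamate semialdehyde for proline and so works opposite to Aldh4a1, had 20.6 and 8.47 CPM after the gavage, against 2.16 and 2.11 CPM with ethanol alone. Its log2 fold change was 2.76 (SE 0.47; edgeR adjusted p = 0.133), and both gavage libraries were far above both others. Aldh1l2, a mitochondrial folate enzyme, had 3.44 and 1.53 CPM after the gavage, against 0.732 and 0.727 CPM with ethanol alone (edgeR adjusted p = 0.2). Aldh1a3, a retinal dehydrogenase, had 2.67 and 1.1 CPM after the gavage, against 0.805 and 0.396 CPM with ethanol alone (edgeR adjusted p = 0.265). Of the 50-base windows of Aldh1l2, 16.8% also occur in D10Wsu102e, which had 962 and 1041 counts after the gavage, against 453 and 584 counts with ethanol alone.

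The other tested genes of the family lay lower or overlapped. Aldh1l1, the cytosolic folate enzyme, had 1160.2 and 1032 CPM after the gavage, against 1333 and 1467 CPM with ethanol alone (log2 fold change -0.35, edgeR adjusted p = 0.449). Aldh5a1, the succinate semialdehyde dehydrogenase, had 56.1 and 71.7 CPM after the gavage, against 72.1 and 115 CPM with ethanol alone, with nearly touching groups. Aldh16a1 had 62.4 and 65.8 CPM after the gavage, against 82.9 and 69.9 CPM with ethanol alone. Aldh3b1 and Aldh1a2 overlapped between the groups, Aldh3b1 at 2.47 ± 0.0643 CPM after the gavage, against 2.76 ± 0.487 CPM with ethanol alone, and Aldh1a2 at 0.751 ± 0.874 CPM after the gavage, against 0.52 ± 0.455 CPM with ethanol alone (means ± SD, n = 2 each). Aldh3a1, an enzyme of stratified epithelia such as the cornea, had 356 counts in replicate 1 of the gavage group and 0 counts in the other 3 libraries, where 3 counts would be 0.0991 to 0.11 CPM. In the same library the squamous epithelial keratins Krt4 and Krt13, chosen after their values were seen, had 7033 and 6531 counts, against at most 2 counts in any other library. A list of 10 squamous markers summed to 509 and 0.0664 CPM after the gavage, against 0.11 and 0.0661 CPM with ethanol alone. Their part in the Aldh3a1 value was not tested.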

How the data were processed

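Libraries of mRNA from mouse liver, 2 per group, were analysed from 1 table of read counts per gene that the authors deposited. Per the submitters' processing notes, base calls were made with bcl2fastq 2.20.0.422, the tools included STAR 2.6.0a, HTSeq and edgeR, and the genome was GRCm38. Per the labels' protocols 2 library kits were used, without saying for which samples. The gene annotation, strand setting and treatment of reads with several matches are not stated in the labels or the table. The deposited counts were not normalised, and no column was left unused.

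From these counts, CPM were computed with TMM factors, and genes were kept with edgeR's filterByExpr (minimum count 10, total 15). The comparison used edgeR 4.0.16 (glmQLFit and glmQLFTest, R 4.3.3), all 4 libraries, no covariates and Benjamini-Hochberg adjustment over 13309 genes with a threshold of 0.05. Each SE is the size of the log2 fold change over the square root of its F value. The step was also run on simulated counts with known fold changes, and the outcome is not given here. DESeq2 1.42.0, limma-voom (limma 3.58.1), edgeR's likelihood-ratio test, other scalings and filters, a GC and length offset, a replicate block and leaving out each library were the alternatives.

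RPKM divided CPM by the exon length of GENCODE M21, which also gave positions, transcripts and coding sequences. Promoter windows came from RefSeq. For a single value, 2 libraries against 2 allow 6 splits and a smallest 2-sided exact permutation p of 0.333. Counting error covers counting only.

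The members and all lists were chosen with earlier results of these data known. All 10 members and every other aldehyde dehydrogenase gene are named. Of each pathway list, a rule took the most abundant gene and up to 4 genes with the smallest p. The latter came from those at an unadjusted p under 0.05 whose groups did not overlap. Only some of the pathway genes that the rule took are described, picked by hand for a role near a member. For the carnitine and choline list none is described. Adh1 and the squamous markers were added after the values were seen.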

Additional observations from a re-analysis of the deposited data

How the results depend on the processing

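All 10 members had a log2 fold change below 0 under every alternative run, and the log2 ratio of their summed CPM, -0.56 in the main comparison, ran from -0.72 to -0.42 with 1 library left out. Since only Aldh1b1 had overlapping groups, leaving out a library could hardly turn the sign of the other members, so this sign adds little to the lack of overlap. The number of genes called moved with the test, from 0 with edgeR's quasi-likelihood test to 1177 with DESeq2 (4 members), 549 with edgeR's likelihood-ratio test (0 members) and 4 with a GC and length offset (0 members). The cause was not tested. With 1 library left out, the quasi-likelihood test called 0 to 13 genes and 0 members, and 0 to 5 members lay lower at an unadjusted p under 0.05. These were 0 without replicate 1 of the gavage group (4.31% of all genes lower at that level), 5 without its replicate 2 (5.4%), 5 without replicate 1 of ethanol alone (8%) and 3 without its replicate 2 (14.6%). DESeq2 with 1 library left out, chosen after seeing the data as was the comparison within each library number, called 227 (without replicate 1 of the gavage group), 402 (without its replicate 2), 390 (without replicate 1 of ethanol alone) and 1361 genes (without its replicate 2). In the same order it called 0, 2, 1 and 3 members lower, with 0.804%, 1.91%, 1.46% and 5.17% of all genes. At an unadjusted p under 0.05, 2, 8, 6 and 3 members lay lower, with 4.73%, 6.31%, 5.35% and 10.2% of all genes. A group left with 1 library was assumed to vary like the other.

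The replicate numbers are shared by both groups, but nothing in the labels says that they pair the samples. Libraries with the same number deviated together (correlation 0.62 over 13309 genes), which 2 pairs cannot settle. With a replicate block, edgeR called 410 genes (238 higher and 172 lower) and 0 members, and 6 members lay lower at an unadjusted p under 0.05, with 12.2% of all genes. With the block and the GC and length offset it called 747 genes and 0 members.

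With 2 libraries per group, the spread between libraries and not the depth limits the precision, since the lowest member count was 1522. Ethanol alone is the only reference, 9 h the only time, and which mice gave which library is not stated.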

Other observations

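The adipocyte markers did not all follow Adipoq. Their sum was 647 and 569.7 CPM in the gavage libraries and 2036 and 1932 CPM with ethanol alone, although Adipoq was at or near 0 in both libraries numbered 2. Most of that sum was Car3, a carbonic anhydrase that hepatocytes also make, at 549 and 558 CPM after the gavage and at 1975 and 1924 CPM with ethanol alone. Neutrophil markers summed to 13.5 and 3.22 CPM after the gavage and to 2.34 and 2.05 CPM with ethanol alone. Erythroid markers summed to 96.3 and 73.8 CPM after the gavage and to 197 and 94.8 CPM with ethanol alone. Lymphocyte markers summed to 7.74 and 2.62 CPM after the gavage and to 9.63 and 3.9 CPM with ethanol alone. Over the 4 libraries, endothelial markers summed to 430.2 to 467 CPM, stellate cell markers to 476 to 580.1 CPM and cholangiocyte markers to 57.6 to 81 CPM.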
